A study of Mus musculus with 6 samples.

Results

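The genes described here encode the proteasome, its assembly chaperones and its activators, measured in the left ventricle of mice with a pressure-loaded heart. They were chosen by name, as every entry of the deposited gene table whose symbol starts with Psma, Psmb, Psmc, Psmd or Psme followed by a number, without the inducible subunits Psmb8, Psmb9 and Psmb10 and without names marked as pseudogenes. The rule found 41 of 24602 genes, and 39 of these had a mean FPKM (fragments per kilobase of transcript, scaled to the library's fragments) of 1 or more over the 6 libraries and were tested. Poly(A) RNA was sequenced from wild-type mice 5 weeks after transverse aortic coarctation (TAC; 3 libraries), a narrowing of the aorta that loads the left ventricle with pressure, or after a sham operation (3 libraries). No transgene, deletion or drug is named for either group, and the labels do not say whether each library came from a separate mouse, so the tests weigh differences against the spread among these libraries, which may be technical.

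The 26S proteasome degrades proteins that carry ubiquitin chains and is a main route by which heart muscle cells remove damaged or unneeded proteins. Its 20S core is a barrel of stacked rings: the outer rings of alpha subunits form the gate and the inner rings of beta subunits hold the proteolytic sites. The 19S regulatory particle caps the core, where ATPase subunits unfold the substrate and non-ATPase subunits bind the ubiquitin chain and cut it off. Activators of the Psme genes can bind the same end of the core in place of the 19S particle.

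Depth was even, with 64023153 to 69992502 estimated counts in a library. Genes of the mitochondrial chromosome took 22.6% to 29.2% of them in TAC and 14.8% to 19.2% in sham. Ventricular cardiomyocyte markers such as Myh6 and Tnnt2 were detected in every library, and none of the 9 was called or had an unadjusted p under 0.05. Their summed level was 52398 to 75386 CPM (estimated counts scaled by TMM to a common library size) in TAC, against 76141 to 84675 CPM in sham. Of 9 fibroblast markers edgeR called 3 higher in TAC (Postn, Dcn and Lum), against 4.71% of all tested genes, and DESeq2 called the same 3. On log2(FPKM + 1) limma called 0 of the 9. With the GC and length trends described below removed, edgeR called 1 of the 9 higher, against 2.6%. The 9 markers summed to 2533 to 3538 CPM in TAC and 2584 to 2733 CPM in sham. Summed levels overlapped between the groups for 3 other marker sets, at 791 to 1225 CPM in TAC against 836 to 972 CPM in sham for endothelial cells, 355 to 504 against 363 to 424 CPM for smooth muscle and pericytes, and 548 to 685 against 508 to 582 CPM for macrophages. In edgeR's test 2 of 7 smooth muscle and pericyte markers (Cnn1 and Rgs5) were called higher, against 4.71% of all tested genes. DESeq2 and limma called the same 2, and with the trends removed edgeR called 1 of the 7 higher. None of 7 endothelial and 8 macrophage markers was called, with 3 and 1 at an unadjusted p under 0.05 and 2 and 1 called by DESeq2. Lymphocyte markers summed to 2.16 to 4.27 CPM in TAC and 1.77 to 3.81 CPM in sham. The atrial markers summed to 1401 to 2642 CPM in TAC and 492 to 1168 CPM in sham, with no overlap. Of the 6 tested, edgeR called 1, Nppa, higher, against 4.71% of all tested genes. The atrial set did not rise as a whole: 2 of the 6 log2 fold changes were positive and 4 negative, with a median of -0.86. DESeq2 also called Nppa higher and called Tbx5 lower, and limma on log2(FPKM + 1) called 0 of the 6. None of these marker genes was at 0 in all 6 libraries. Their part in the proteasome results was not tested, and in bulk tissue fewer cells of a type cannot be told apart from less RNA per cell.

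Most proteasome genes were not called. EdgeR's quasi-likelihood test, adjusted by Benjamini-Hochberg across the 8795 genes tested, called 5 of the 39, against 6.99% of all tested genes. Of these, 4 rose in TAC (Psma1, Psma3, Psmc6 and Psme4), against 4.71% of all tested genes. One activator gene, Psme1, fell, which makes 1 of 39, against 2.29% of all tested genes, and 34 were not called at an adjusted p under 0.05. DESeq2 called the same 5 and 6 more, Psma2, Psma4, Psma6, Psmd6, Psmd12 and Psmd14, all higher in TAC; it called 11.7% of all tested genes higher and 7.02% lower. On log2(FPKM + 1), limma called 3 of the 39 higher and 1 lower, against 1.98% and 3.84% of all tested genes. The median log2 fold change, TAC over sham, was 0.09 over the 39 genes and -0.01 over all tested genes, and 27 of the 39 values were positive, against 49.2% of all tested genes. That majority depended on the processing. With the GC and length trends described below removed 20 of the 39 were positive, against 4447 of the 8795 tested genes. By limma 17 of the 39 were positive, against 3106 of the 8795. The median by limma was -0.05 over the 39 and -0.13 over all tested genes. In CPM all 3 TAC libraries lay above all 3 sham libraries for 13 of the 39 genes, which compares with 17.7% of all tested genes. They lay below for 3 of the 39 (Psme1, Psme2b and Psmd3), which compares with 17.1%. Of the 13 genes, Psma4, Psmb1, Psmc1 and Psmd7 overlapped between the groups in FPKM. The summed level of the 41 genes was 3644, 3804 and 3270 CPM in TAC and 3329, 3373 and 3560 CPM in sham, and the groups overlapped.

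**Figure D1:**
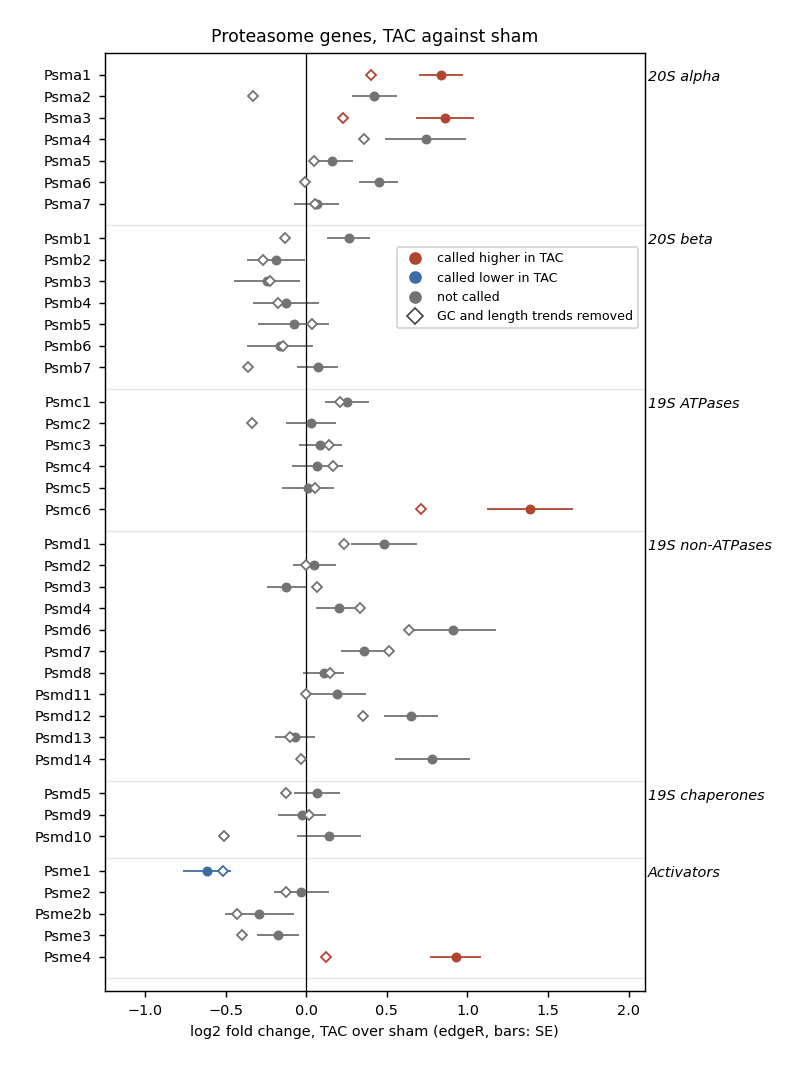
Log2 fold change, TAC over sham, of the 39 tested proteasome genes (edgeR; filled circles, bars are SE), grouped by role, with the value after removal of GC and length trends as open diamonds. The 4 genes called higher (red) lie between 0.84 and 1.39 and the gene called lower (blue), Psme1, lies at -0.61; the open diamonds of the 4 lie closer to 0.

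The proteasome calls came with a trend over base composition. Across the 39 genes the log2 fold change fell with the GC content of the transcripts, with a Spearman correlation of -0.63, and across 8790 tested genes with a GC value it was -0.49. Both are descriptions, since genes of 1 library share its depth and composition. Among the proteasome genes, 12 had a GC content below 46%, a limit set after the values were seen. Their median log2 fold change was 0.60, against 0.57 over the 1192 tested genes below that limit. All 4 proteasome genes called higher were among the 12, and 20.8% of all tested genes below the same limit were called higher. The other 27 proteasome genes had a median of 0.05, with 0 called higher and 1, Psme1, called lower. Among all tested genes at or above the limit the median was -0.06, and 2.18% were called higher. With each library's trend over GC content and length removed, the correlation over the 39 genes was 0.06, 0 of the 39 genes were called higher, against 2.6% of all tested genes, and 1, again Psme1, was called lower, against 2.07%. The median over the 39 genes was then 0.01. The source of the trend was not tested.

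**Figure D2:**
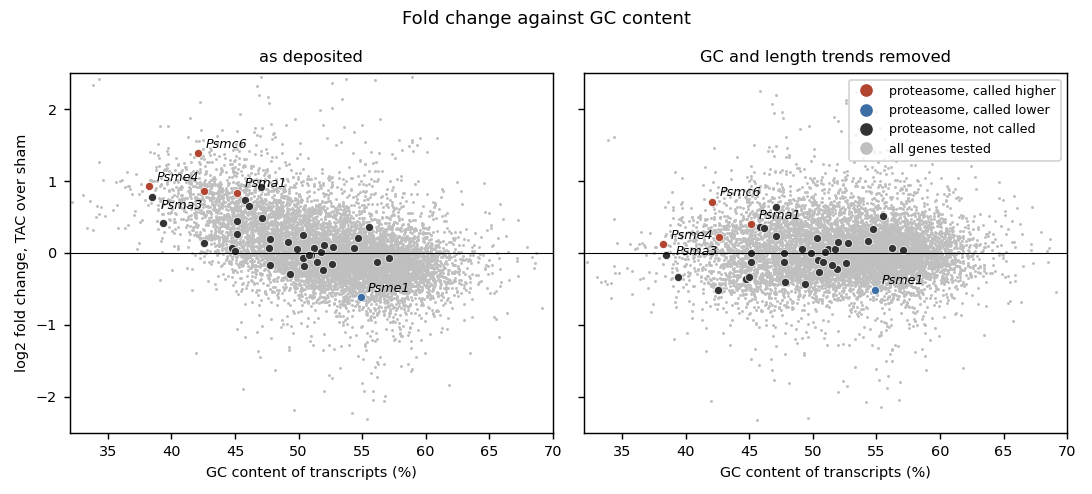
Log2 fold change, TAC over sham, against the GC content of each gene's transcripts, for the proteasome genes (coloured and black) over all tested genes (grey), as deposited (left) and with GC and length trends removed (right). On the left the 4 genes called higher lie below 46% GC, and on the right the slope over the 39 genes is gone (Spearman 0.06).

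Among the alpha subunits of the core, Psma1 and Psma3 rose. Psma1 (ENSMUSG00000030751, GRCm38 chr7:114264606-114276118) had 42.0, 43.5 and 40.6 CPM in TAC and 25.9, 20.7 and 24.0 CPM in sham. The 3 TAC values were close together and well above every sham value. The means were 42.0 ± 1.43 CPM in TAC and 23.5 ± 2.61 CPM in sham (SD, n = 3 each), a log2 fold change of 0.84 ± 0.14 (SE) with an edgeR adjusted p of 0.0244. With the GC and length trends removed it was 0.40, with an edgeR adjusted p of 0.0709.

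Psma3 (ENSMUSG00000060073, chr12:70974621-70996347) had 21.4, 19.9 and 22.6 CPM in TAC and 14.0, 9.52 and 11.7 CPM in sham. The groups were separated, and sham replicate 2 was the lowest library. The log2 fold change was 0.86 ± 0.18, with an edgeR adjusted p of 0.0341, and 0.23 with the trends removed (edgeR adjusted p 0.354). Of the 50-base words of its transcripts 15.4% also occur in another gene, so its estimated counts are less certain than those of Psma1, for which the share was 0%. Psma1 and Psma3 encode different alpha subunits of the ring that gates the core.

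None of the other 5 tested alpha subunits was called by edgeR. DESeq2 called Psma2, Psma4 and Psma6 of these higher, against 11.7% of all tested genes. Psma6 had 55.2, 55.1 and 52.5 CPM in TAC and 38.0, 39.3 and 41.9 CPM in sham, with no overlap (log2 fold change 0.45 ± 0.12, edgeR adjusted p 0.0617). Psma2 had 52.7, 51.8 and 50.9 CPM in TAC and 41.5, 32.8 and 41.7 CPM in sham (log2 fold change 0.42 ± 0.14, edgeR adjusted p 0.0987). Its groups did not overlap either, and the trend-removed log2 fold change was -0.33. Psma7, the most abundant alpha subunit per length, had 129, 147 and 123 CPM in TAC and 113, 128 and 140 CPM in sham, and these ranges overlapped (log2 fold change 0.06 ± 0.14, edgeR adjusted p 0.807). All 7 tested alpha subunits had a positive log2 fold change, against 49.2% of all tested genes, with a median of 0.45. In 5 all TAC libraries were above all sham libraries in CPM, against 17.7% of all tested genes and 685 of the 1192 tested genes below 46% GC. Among these 5 Psma4 overlapped between the groups in FPKM. The median GC content of the alpha subunits was 45.2%. By limma on log2(FPKM + 1) 6 of the 7 alpha subunits were positive, against 3106 of the 8795 tested genes. With the trends removed 5 of the 7 were, with a median of 0.05, against 4447 of the 8795.

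Psma8, the alpha subunit known from male germ cells, was listed with 13, 18 and 26 estimated counts in TAC and 0 in each sham library. The TAC level was at least 20.2-fold higher, taking 3 counts over the sham group as the floor, which covers counting error only. With a mean FPKM under 1 it was not among the tested genes, and without that filter its edgeR adjusted p was 0.0596.

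No beta subunit was called by edgeR, DESeq2 or limma, and 0 of the 7 had an unadjusted p under 0.05. The 3 that carry the proteolytic sites are Psmb5 (chymotrypsin-like activity), Psmb6 (caspase-like) and Psmb7 (trypsin-like). Psmb5 had 124, 138 and 74.7 CPM in TAC and 108, 128 and 119 CPM in sham (log2 fold change -0.08 ± 0.22, edgeR adjusted p 0.856). Psmb6 had 139, 151 and 87.4 CPM in TAC and 129, 145 and 149 CPM in sham (log2 fold change -0.16 ± 0.21, edgeR adjusted p 0.66). In both genes TAC replicate 3 was the lowest of the 6 libraries, and without it the log2 fold change was 0.15 for Psmb5 and 0.04 for Psmb6. Psmb7 had 86.0, 97.9 and 86.5 CPM in TAC and 91.7, 80.5 and 85.4 CPM in sham, with partial overlap (log2 fold change 0.07 ± 0.13, edgeR adjusted p 0.768). Of the words of Psmb5 54.1% also occur in another gene.

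The other beta subunits, Psmb1, Psmb2, Psmb3 and Psmb4, have no proteolytic site of their own. Psmb1 had 122, 121 and 100 CPM in TAC and 91.3, 96.7 and 98.5 CPM in sham (log2 fold change 0.26 ± 0.13, edgeR adjusted p 0.236). It was the only beta subunit without overlap in CPM, where 17.7% of all tested genes had TAC above sham. In FPKM its groups overlapped, with TAC replicate 3 at 21.2 and sham replicate 2 at 21.4. Without TAC replicate 3 Psmb1 was called higher, at 0.35 with an edgeR adjusted p of 0.0451. That fit called 9.24% of all tested genes higher and 10.1% lower. For Psmb2, Psmb3 and Psmb4 TAC replicate 3 was again the lowest library. The median log2 fold change of the 7 beta subunits was -0.13. Without TAC replicate 3 it was 0.07, with 5 of 7 values positive in place of 2.

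Among the 6 ATPases of the 19S particle 1 gene, Psmc6, rose. Psmc6 (ENSMUSG00000021832, chr14:45329788-45349705) had 22.9, 25.0 and 27.0 CPM in TAC and 13.9, 6.86 and 7.84 CPM in sham. Every TAC library was above every sham library, and sham replicate 1 stood closest to TAC. The means were 25.0 ± 2.03 CPM in TAC and 9.54 ± 3.81 CPM in sham (SD, n = 3 each), a log2 fold change of 1.39 ± 0.27 with an edgeR adjusted p of 0.0297. This was the largest log2 fold change among the 39 tested proteasome genes. With the trends removed it was 0.71, again the largest, with an edgeR adjusted p of 0.142.

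The remaining ATPases lay between 0.01 and 0.25 on the log2 scale and none was called. Psmc3, the most abundant gene of the 19S particle per length, had 341, 355 and 298 CPM in TAC and 296, 305 and 333 CPM in sham, and the groups overlapped (log2 fold change 0.09 ± 0.13, edgeR adjusted p 0.72). Psmc1 alone among these 5 had no overlap between the groups in CPM, where 17.7% of all tested genes had TAC above sham. In FPKM its groups overlapped. Its log2 fold change was 0.25 ± 0.14, with an edgeR adjusted p of 0.267.

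None of the 11 non-ATPase subunits was called by edgeR, although 5 had an unadjusted p under 0.05, against 28.1% of all tested genes, and DESeq2 called 3 higher (Psmd6, Psmd12 and Psmd14), against 11.7%. The log2 fold change was positive in 9 of the 11, with a median of 0.20, against 49.2% of all tested genes. By limma on log2(FPKM + 1) it was positive in 7, with a median of 0.06, against 3106 of the 8795 tested genes. Psmd12, a subunit of the lid, had 47.7, 50.8 and 50.8 CPM in TAC and 36.7, 24.8 and 33.5 CPM in sham. The groups were separated, with a log2 fold change of 0.65 ± 0.17 and an edgeR adjusted p of 0.0544, the smallest among the genes that were not called. Psmd6, another lid subunit, had 31.3, 28.6 and 28.4 CPM in TAC and 22.3, 10.3 and 14.3 CPM in sham (log2 fold change 0.91 ± 0.26, edgeR adjusted p 0.0701). Its groups did not overlap, but the sham libraries were widely spread.

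Psmd14, the deubiquitinase that removes the ubiquitin chain before degradation, had 15.4, 14.6 and 17.2 CPM in TAC and 12.5, 7.15 and 7.78 CPM in sham. These groups were separated as well (log2 fold change 0.78 ± 0.23, edgeR adjusted p 0.075), and the value was -0.03 with the trends removed. Psmd4, which holds ubiquitin chains at the 19S particle, had 190, 222 and 190 CPM in TAC and 161, 162 and 199 CPM in sham, with overlap (log2 fold change 0.20 ± 0.15, edgeR adjusted p 0.403). Psmd7, the partner of Psmd14 in the lid, was above sham in every TAC library in CPM. Its log2 fold change was 0.36 ± 0.14 (edgeR adjusted p 0.145) and 0.52 with the trends removed. In FPKM its groups overlapped, with TAC replicate 1 at 31.8 and sham replicate 3 at 35.3. Psmd3 was below sham in every TAC library, at -0.12 ± 0.12 (edgeR adjusted p 0.545). The others, Psmd1, Psmd2, Psmd8, Psmd11 and Psmd13, overlapped between groups, at -0.07 to 0.48.

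Psmd5, Psmd9 and Psmd10 are chaperones that help to assemble the base of the 19S particle and leave it afterwards. They had the lowest levels of the 39 genes, at 1.65 to 3.33 FPKM, and none was called by edgeR, DESeq2 or limma, with 0 at an unadjusted p under 0.05. Psmd5 had 12.2, 13.0 and 13.7 CPM in TAC and 12.4, 12.3 and 12.4 CPM in sham (log2 fold change 0.07 ± 0.14, edgeR adjusted p 0.803). Psmd9 had 25.5, 28.6 and 22.3 CPM in TAC and 25.1, 25.8 and 27.0 CPM in sham (log2 fold change -0.03 ± 0.15, edgeR adjusted p 0.925). All 3 overlapped between the groups, and 25.5% of the Psmd9 transcript bases overlap a gene on the other strand.

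The activators moved in both directions. Psme4 (ENSMUSG00000040850, chr11:30771726-30880361), a single large protein that caps the core and is known for roles in DNA repair and sperm formation, had 82.4, 79.7 and 68.0 CPM in TAC and 47.5, 35.8 and 37.8 CPM in sham. The groups were well separated. The means were 76.7 ± 7.66 CPM in TAC and 40.4 ± 6.22 CPM in sham (SD, n = 3 each), a log2 fold change of 0.93 ± 0.16 with an edgeR adjusted p of 0.0251. With the trends removed it was 0.12 (edgeR adjusted p 0.569). At 38.2% its transcripts had the lowest GC content of the 39 genes.

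Psme1 (ENSMUSG00000022216, chr14:55578123-55581528) encodes the alpha chain of the ring-shaped activator that interferon gamma induces in many cells. It had 132, 146 and 110 CPM in TAC and 182, 215 and 197 CPM in sham. Every TAC library was below every sham library. The means were 129 ± 17.8 CPM in TAC and 198 ± 16.5 CPM in sham (SD, n = 3 each), a log2 fold change of -0.61 ± 0.15 with an edgeR adjusted p of 0.0466. With the trends removed it was -0.51, with an edgeR adjusted p of 0.0309, and Psme1 was the only one of the 5 called genes that remained called.

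Psme2 encodes the beta chain that shares the ring with the Psme1 product. It had 47.1, 43.7 and 33.4 CPM in TAC and 36.7, 44.4 and 45.6 CPM in sham, with full overlap (log2 fold change -0.03 ± 0.17, edgeR adjusted p 0.929). Psme2b, a single-exon copy with which Psme2 shares sequence, had 9.65, 9.70 and 6.18 CPM in TAC and 10.001, 9.93 and 11.3 CPM in sham (log2 fold change -0.29 ± 0.21, edgeR adjusted p 0.417). Of its words 69.3% occur in another gene, and of those of Psme2 28.3%, so counts of the 2 genes are uncertain. Psme3, the nuclear member of the family, had 70.9, 67.4 and 81.3 CPM in TAC and 78.3, 88.1 and 81.6 CPM in sham, with overlap (log2 fold change -0.18 ± 0.13, edgeR adjusted p 0.428).

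**Figure D3:**
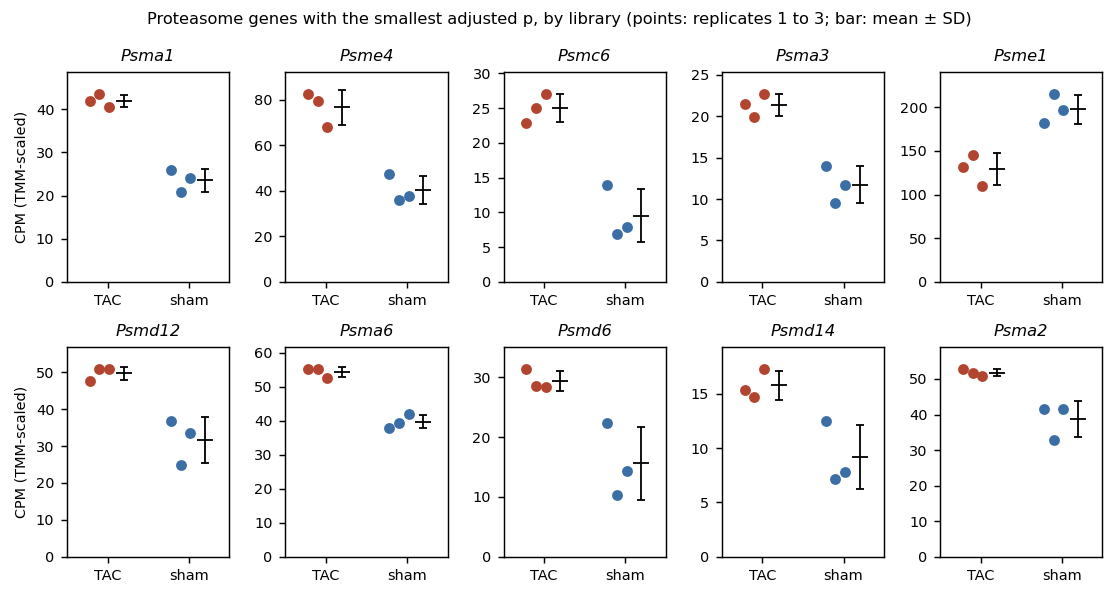
CPM by library for the 10 proteasome genes with the smallest adjusted p, TAC (red) left of sham (blue), with points in the order of replicates 1 to 3 and bars for mean ± SD. In all 10 genes the groups are separated, which their choice by smallest adjusted p favours. Of all tested genes 17.7% have every TAC library above sham and 17.1% below. Psme1 is lower in TAC, at 110 to 146 CPM against 182 to 215 CPM in sham, and the other 9 are higher.

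None of the 5 calls held in every repeat with 1 library left out. All 5 were lost without TAC replicate 1, TAC replicate 2, sham replicate 2 or sham replicate 3. In that order those fits called 33, 99, 9 and 30 of the 8795 tested genes higher and 18, 34, 3 and 21 lower. With all 6 libraries 414 were called higher and 201 lower. Psme1 was also lost without sham replicate 1, and all 5 held without TAC replicate 3. Over these 6 repeats the edgeR adjusted p was 0.00925 to 0.118 for Psma1, 0.0224 to 0.133 for Psma3, 0.0183 to 0.123 for Psmc6, 0.00674 to 0.118 for Psme4 and 0.0248 to 0.188 for Psme1. The log2 fold changes were 0.75 to 0.93, 0.73 to 1.03, 1.20 to 1.79 and 0.85 to 1.08 for the 4 higher genes in that order, and -0.71 to -0.51 for Psme1. Their direction could hardly change, since the groups of all 5 genes did not overlap.

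The sequences around the start of the 5 called genes are shown because these genes carry the differences above. Each window runs 5′ to 3′ on the gene's strand, from 250 bases before to 50 bases after the start, as given by RefSeq for GRCm38.p6. In the Psma1 window (chr7:114276067-114276366, minus strand) and the Psma3 window (chr12:70974373-70974672, plus strand) the capitals mark CCAAT on either strand. In the Psmc6 window (chr14:45329574-45329873, plus strand) and the Psme4 window (chr11:30771525-30771824, plus strand) they mark TGACNNNGC, the core of the antioxidant response element, which transcription factors of the Nfe2 family such as Nfe2l1 bind. In the Psme1 window (chr14:55578244-55578543, plus strand) they mark the core of the interferon-stimulated response element, which is GAAA, any 2 bases and GAAA again.
Psma1: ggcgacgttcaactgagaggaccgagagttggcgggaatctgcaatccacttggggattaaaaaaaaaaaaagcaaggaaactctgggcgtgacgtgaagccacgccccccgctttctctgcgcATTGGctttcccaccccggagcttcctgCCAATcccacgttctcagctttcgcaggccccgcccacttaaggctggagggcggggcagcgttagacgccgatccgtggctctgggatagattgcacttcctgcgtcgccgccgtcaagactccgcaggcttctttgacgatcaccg
Psma3: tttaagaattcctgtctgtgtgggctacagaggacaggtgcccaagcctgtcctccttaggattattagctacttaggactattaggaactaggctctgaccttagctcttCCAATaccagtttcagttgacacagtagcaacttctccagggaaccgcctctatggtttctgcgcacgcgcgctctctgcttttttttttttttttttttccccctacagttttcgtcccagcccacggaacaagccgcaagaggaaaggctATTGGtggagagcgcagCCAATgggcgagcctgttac
Psmc6: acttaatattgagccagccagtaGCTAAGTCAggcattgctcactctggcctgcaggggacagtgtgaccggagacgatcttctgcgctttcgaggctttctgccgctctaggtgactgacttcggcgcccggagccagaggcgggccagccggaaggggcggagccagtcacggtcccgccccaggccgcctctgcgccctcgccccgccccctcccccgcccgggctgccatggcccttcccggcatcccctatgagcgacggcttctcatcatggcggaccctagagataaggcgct
Psme4: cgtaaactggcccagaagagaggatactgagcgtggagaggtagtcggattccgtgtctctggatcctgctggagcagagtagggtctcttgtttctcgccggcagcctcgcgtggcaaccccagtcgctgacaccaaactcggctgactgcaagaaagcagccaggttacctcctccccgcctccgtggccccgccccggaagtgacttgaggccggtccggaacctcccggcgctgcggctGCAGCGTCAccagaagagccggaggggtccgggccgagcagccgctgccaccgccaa
Psme1: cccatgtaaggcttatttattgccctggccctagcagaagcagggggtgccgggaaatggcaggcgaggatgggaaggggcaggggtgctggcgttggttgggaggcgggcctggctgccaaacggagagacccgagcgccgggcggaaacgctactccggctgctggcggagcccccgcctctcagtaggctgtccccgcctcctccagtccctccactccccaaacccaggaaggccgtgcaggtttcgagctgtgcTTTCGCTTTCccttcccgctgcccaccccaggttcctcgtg

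Positions are counted from 1 at the first base of the window. Psma1 held CCAAT at 153 to 157 and its reverse complement at 125 to 129, and Psma3 held it at 112 to 116 and 281 to 285 and its reverse complement at 264 to 268. The antioxidant core lay on the opposite strand at 24 to 32 in Psmc6 and at 244 to 252 in Psme4. The interferon core lay on the opposite strand at 260 to 269 in Psme1. Each motif was searched on both strands, in 37 windows of 34 of the 41 genes that RefSeq's table matched and in all 32851 windows of that table.

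TGACNNNGC occurred in windows of 6 of the 34 genes (Psmb5, Psmb6, Psmc6, Psmd9, Psmd12 and Psme4) and in 12.4% of all windows. Of these 6, Psmc6 and Psme4 were called higher and the other 4 were not called. CCAAT occurred in 13 genes and in 37.4% of all windows. The interferon core occurred in 4 genes (Psmb3, Psmd4, Psmd9 and Psme1) and in 3.44% of all windows. No window shown held more than 1 of the 3 motifs. A match of letters describes the window only and does not show that a factor binds there.

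Per length, the levels within each particle spanned a wide range although the assembled particle holds its subunits in fixed numbers. Within the core, the mean over all 6 libraries was highest for Psmb5, at 120 FPKM, and lowest for Psma3, at 3.93 FPKM, a 30.6-fold range over 14 genes. Psma7 was the highest alpha subunit, at 39.7 FPKM, and Psmb1 the lowest beta subunit, at 21.3 FPKM. Within the 19S particle the range was 28.2-fold over 17 genes, between Psmc3 at 115 FPKM and Psmd14 at 4.09 FPKM. Psmd4 was the highest non-ATPase subunit, at 62.5 FPKM, and Psmc6 the lowest ATPase, at 4.53 FPKM. Among activators Psme1 was highest, at 70.3 FPKM, and Psme4 lowest, at 6.43 FPKM.

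The genes called higher stood at the low end of these levels: Psma3, Psmc6 and Psme4 were the lowest of the alpha subunits, the ATPases and the activators, and Psma1 came next above Psma3. Psmc6 averaged 6.39 ± 0.998 FPKM in TAC and 2.66 ± 1.02 FPKM in sham, and Psma3 averaged 4.90 ± 0.680 FPKM in TAC and 2.96 ± 0.498 FPKM in sham (SD, n = 3 each). Psme1, the gene called lower, averaged 51.9 ± 3.90 FPKM in TAC and 88.6 ± 9.69 FPKM in sham. Across the 39 genes the log2 fold change ran against the mean level with a Spearman correlation of -0.53, and across all tested genes with -0.23. After removal of the GC and length trends these were -0.10 and -0.14.

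**Figure D4:**
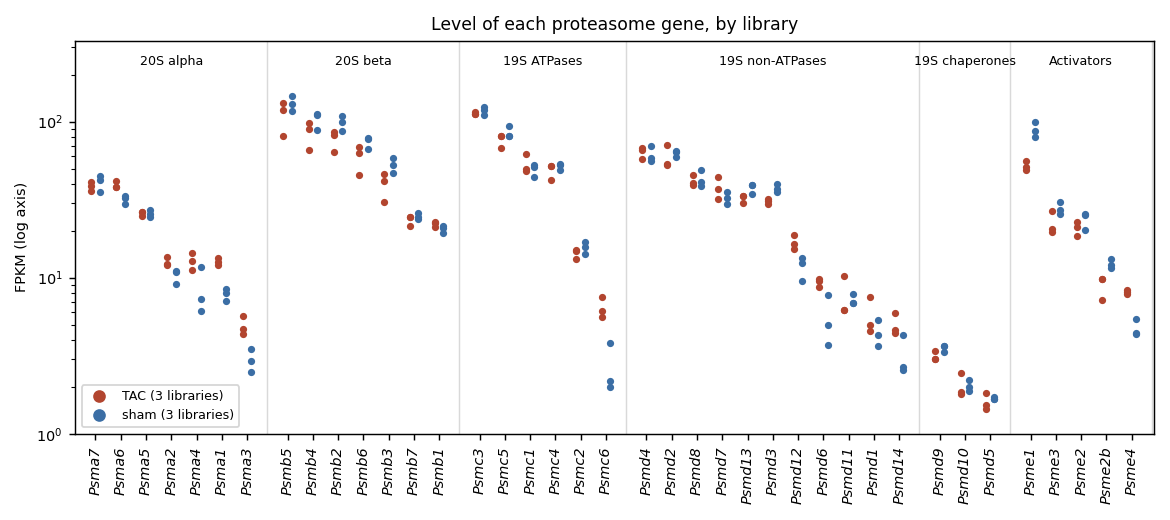
FPKM on a log axis for the 39 tested proteasome genes in each library, TAC (red) left of sham (blue), grouped by role and ordered by mean level. The alpha and beta genes of 1 particle differ up to 30.6-fold in level, and Psma3, Psmc6 and Psme4 lie at the low end of their groups with TAC above sham.

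The inducible subunits Psmb8, Psmb9 and Psmb10 replace Psmb5, Psmb6 and Psmb7 in the immunoproteasome, the form that interferon gamma induces for antigen presentation. None of the 3 was called by edgeR, DESeq2 or limma, and 0 had an unadjusted p under 0.05. Psmb8 had 24.3, 27.9 and 18.0 CPM in TAC and 21.02, 21.5 and 19.7 CPM in sham (log2 fold change 0.18 ± 0.19, edgeR adjusted p 0.582). Psmb9 had 9.31, 12.4 and 7.49 CPM in TAC and 7.20, 7.36 and 7.16 CPM in sham (log2 fold change 0.43 ± 0.21, edgeR adjusted p 0.232). Psmb10 had 74.7, 76.8 and 57.4 CPM in TAC and 58.6, 64.5 and 59.5 CPM in sham (log2 fold change 0.20 ± 0.15, edgeR adjusted p 0.437). Psmb9 alone of the 3 had no overlap between the groups in CPM, where 17.7% of all tested genes had TAC above sham. In FPKM its groups overlapped, with TAC replicate 3 at 1.98 and sham replicate 2 at 2.04. Of 7 tested interferon response genes 0 were called in edgeR's test, with 2 at an unadjusted p under 0.05 and 2 called higher by DESeq2 (Gbp2 and Ifit3), and their summed level was 138 to 153 CPM in TAC and 118 to 187 CPM in sham.

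Ratios of FPKM within a library compared partner genes. They were chosen after the values were seen. The ratio of Psme1 to Psme2 was 2.24, 2.67 and 2.64 in TAC and 3.96, 3.86 and 3.45 in sham, and it was lower in every TAC library, by a log2 difference of -0.58. The ratio of Psmb9 to the constitutive Psmb6 was 0.0341, 0.0419 and 0.0436 in TAC and 0.0285, 0.0259 and 0.0245 in sham, a log2 difference of 0.60 with no overlap. That of Psmb8 to Psmb5 was 0.0520, 0.0538 and 0.0638 in TAC and 0.0515, 0.0444 and 0.0439 in sham, a difference of 0.28 in which 1 TAC library barely cleared the highest sham library.

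The ratio of Psmb10 to Psmb7 was 1.74, 1.57 and 1.33 in TAC and 1.28, 1.61 and 1.40 in sham, with overlap and a log2 difference of 0.11. In an exact two-sided permutation test the first 3 ratios each gave p = 0.1, which is the smallest the 20 assignments of 3 against 3 libraries allow, and the last gave p = 0.5. Adjusted over the 4 ratios by Benjamini-Hochberg, these exact permutation p-values were 0.133 for the first 3 and 0.5 for the last. None could pass a threshold of 0.05 in this design.

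**Figure D5:**
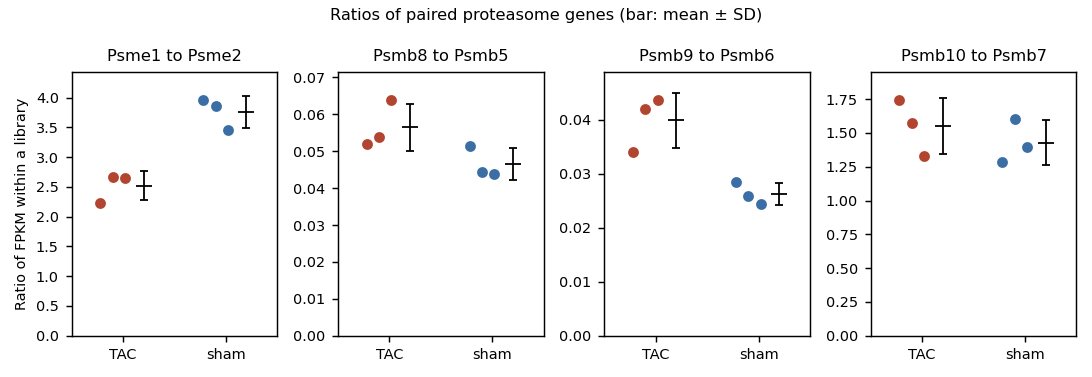
Ratios of FPKM of partner genes within each library, TAC (red) left of sham (blue), with bars for mean ± SD. The ratio of Psme1 to Psme2 is 2.24 to 2.67 in TAC and 3.45 to 3.96 in sham, while that of Psmb9 to Psmb6 is higher in every TAC library.

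Genes that build or regulate the proteasome were counted beside it. Of 5 assembly chaperones of the core 1 rose and 0 fell by edgeR, against 4.71% and 2.29% of all tested genes, and limma called 0. This was Pomp, the maturation protein of the core, with 54.2, 55.8 and 48.1 CPM in TAC and 36.6, 30.1 and 33.9 CPM in sham. The groups were separated, and the log2 fold change was 0.65 ± 0.14 with an edgeR adjusted p of 0.0352. With the trends removed it was 0.63 (edgeR adjusted p 0.0321). That fit called 1 of the 5 chaperones higher, Pomp, and 1 other lower, against 2.6% and 2.07% of all tested genes.

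Of 10 associated proteins 4 rose and 0 fell by edgeR, against the same 4.71% and 2.29% of all tested genes, and limma called 1, Ecpas. Ecpas, which tethers the 26S proteasome to other cell structures, had 39.8, 34.9 and 33.0 CPM in TAC and 17.0, 9.75 and 14.1 CPM in sham. These groups lay far apart (log2 fold change 1.40 ± 0.22, edgeR adjusted p 0.0229), and the value was 0.85 with the trends removed (edgeR adjusted p 0.034). Zfand5, a zinc finger protein that stimulates the 26S proteasome, had 29.3, 26.3 and 30.3 CPM in TAC and 18.5, 12.7 and 15.8 CPM in sham (log2 fold change 0.87 ± 0.18, edgeR adjusted p 0.0331). Txnl1, a thioredoxin-like protein bound to the 19S particle, had 27.6, 30.2 and 30.8 CPM in TAC and 17.8, 17.3 and 20.5 CPM in sham (log2 fold change 0.67 ± 0.15, edgeR adjusted p 0.036). Zfand5 and Txnl1 did not overlap between groups but stood at 0.14 and -0.15 with the trends removed. The fourth, Usp14, encodes a ubiquitin-specific protease of the 19S particle (log2 fold change 0.98 ± 0.22, edgeR adjusted p 0.038, and 0.30 with the trends removed). With the trends removed 1 of the 10 associated proteins, Ecpas, was called higher and 1 other lower. The edgeR calls of Pomp and of these 4 genes did not hold in every repeat with 1 library left out. Pomp and Txnl1 passed in 1 of 6 repeats (without TAC replicate 3), Zfand5 and Usp14 in 2 and Ecpas in 3. Calls over all 8795 tested genes varied as well, with 9 higher without sham replicate 2 and 813 without TAC replicate 3, against 414 with all libraries. The highest edgeR adjusted p was 0.149 for Pomp, 0.153 for Txnl1, 0.131 for Zfand5, 0.162 for Usp14 and 0.0871 for Ecpas. Psmf1, an inhibitor of the core, had a log2 fold change of -0.20 ± 0.16 (edgeR adjusted p 0.456).

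None of the 5 tested regulators of proteasome genes was called by edgeR, DESeq2 or limma, with 1 at an unadjusted p under 0.05. Nfe2l1, the transcription factor that raises proteasome genes when proteasome activity is short, had 358, 358 and 553 CPM in TAC and 475, 404 and 410 CPM in sham. TAC replicates 1 and 2 lay below all sham libraries and TAC replicate 3 above them (log2 fold change -0.02 ± 0.20, edgeR adjusted p 0.956). Its relative Nfe2l2 stood at 0.59 ± 0.21 (edgeR adjusted p 0.111).

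Upstream of the proteasome, 0 of 6 ubiquitin shuttle receptors, 0 of 5 ubiquitin and activating enzyme genes and 0 of 7 muscle ubiquitin ligases were called in edgeR's test; at an unadjusted p under 0.05 there were 1, 1 and 3, and DESeq2 called 0, 1 (Uba1, lower) and 1 (Fbxo21, lower). Trim63, a ligase of the sarcomere, had 149, 147 and 244 CPM in TAC and 211, 229 and 209 CPM in sham, with TAC replicate 3 the highest library and the other TAC libraries the lowest (log2 fold change -0.27 ± 0.21, edgeR adjusted p 0.448). Fbxo32, a ligase known from muscle wasting, had 32.5, 26.1 and 53.8 CPM in TAC and 23.5, 18.7 and 28.7 CPM in sham, with overlap (log2 fold change 0.67 ± 0.28, edgeR adjusted p 0.163). The smallest adjusted p in each set belonged to Ubqln2 (log2 fold change 0.61 ± 0.22, edgeR adjusted p 0.121), to Uba1, the main ubiquitin-activating enzyme (-0.41 ± 0.12, edgeR adjusted p 0.0776), and to Fbxo21 (-0.56 ± 0.16, edgeR adjusted p 0.0715). Several of these values or calls changed without TAC replicate 3, in a fit that called 9.24% of all tested genes higher and 10.1% lower. Trim63 was then called lower, at -0.55 (edgeR adjusted p 0.0155), as was Fbxo21 at -0.73 (edgeR adjusted p 0.00866). Uba1 was called lower too, at -0.42 (edgeR adjusted p 0.0393), close to its value over all libraries. Fbxo32 stood at 0.31 (edgeR adjusted p 0.292).

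Psmc3ip also met the naming rule but encodes a recombination factor of meiosis and not a subunit. It averaged 0.627 FPKM in TAC and 0.677 FPKM in sham and was not tested.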

How the data were processed

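RNA of 6 left ventricle libraries (TAC 3, sham 3) was compared. The submitters' processing notes name cutadapt 1.9, HISAT2 2.0.4, StringTie 1.3.4d and the build GRCm38. Per the labels' protocols, second-strand cDNA was marked with dUTP. The annotation release and the strand setting of the counting were not given in the sources used here. Deposited by the authors were FPKM and estimated counts per gene and library, per the file headers. The estimated counts were already whole; among genes with a single transcript and low counts 76.3% to 78.5% per library could be computed by rounding up the product of FPKM, length and a library factor, so they were treated as estimates and not as tallies of reads. The test planned for counts was used on them. No column of another sample was present.

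Genes whose FPKM averaged at least 1 were tested with edgeR 4.0.16 (R 4.3.3): TMM scaling, glmQLFit and glmQLFTest, adjustment over all tested genes, called at an adjusted p under 0.05. SEs are approximate: each is the absolute log2 fold change over the square root of edgeR's F. CPM are estimated counts scaled by TMM, with mean ± SD. Overlap of a gene's groups was judged in CPM unless FPKM is named. GC content, length and shared 50-base words came from GENCODE M21. Trends were removed by lowess (span 0.3, 3 rounds) of each library's deviation over GC content and length, passed to edgeR as offsets. The tests were tested on simulated data. Alternatives used DESeq2 1.42.0, limma 3.58.1, other scalings and filters, the replicate number as a block, and each library left out.

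The members, the gene lists and the rule for naming genes were chosen with earlier results of these data known. Values in every library are given for the 10 members with the smallest adjusted p, the highest and lowest of each role by FPKM, the catalytic subunits, the activators and the inducible subunits. Of the other lists, up to 3 called genes or the gene with the smallest adjusted p are named, plus Nfe2l1, Pomp, Psmf1, Trim63 and Fbxo32. Usp14, Psmc1, Psmd3 and Psmd7 were named after their values were seen.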

Additional observations from a re-analysis of the deposited data

How the results depend on the processing

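RLE scaling and leaving out mitochondrial genes kept all 5 calls and called no other proteasome gene. DESeq2 called 1031 genes higher and 617 lower, with 10 proteasome genes higher. Upper quartile scaling called 6 proteasome genes higher and 0 lower, with a median of 0.15 against 0.05 for all tested genes. Without the FPKM filter 163 genes were higher and 122 lower, with 2 and 0 proteasome genes. The median was then -0.0123 for the proteasome and 0.0590 for all genes. At a mean FPKM of 5 or more 143 genes were higher and 68 lower, with 3 and 0 proteasome genes. The median was then 0.15 for the proteasome and -0.0019 for all genes tested. On log2(FPKM + 1) limma called 174 genes higher and 338 lower, and the median was -0.0489 for the proteasome and -0.13 for all genes; with a pseudocount of 0.1 it called 170 and 336, with medians of -0.0616 and -0.16. Removing trends over GC content and length left 229 genes higher and 0 proteasome genes higher, with a median of 0.0139; Txnl1 stood at -0.15. The replicate block left 141 genes higher and 42 lower, with 2 proteasome genes higher (Psmc6 and Psme4) and 0 lower; together with the trend removal it left 105 and 43, with 0 and 0, a median of -0.0012 and Txnl1 at -0.14. Libraries with the same number correlated at -0.10, 0.14 and -0.06, and not every library correlated best with its own number. Such weak correlations from 3 libraries per group cannot decide whether the numbers pair the samples.

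Leaving out each library gave 9 to 813 genes higher and 3 to 892 lower, 0 to 8 proteasome genes higher and 0 to 1 lower, with a median of 0.07 to 0.14; the extremes came without sham replicate 2 and without TAC replicate 3. The causes were not tested. The added ratios kept their direction in every such repeat, at -0.64 to -0.50 for Psme1 to Psme2, 0.53 to 0.70 for Psmb9 to Psmb6, 0.19 to 0.35 for Psmb8 to Psmb5 and 0.03 to 0.22 for Psmb10 to Psmb7. For all but Psmb10 to Psmb7 this was fixed in advance, since the groups did not overlap. The 5 called genes kept their direction in all settings that tested them.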
